A study of Mus musculus with 40 samples.

Results

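The 8 genes described here encode the collagen and laminin chains and the linking proteins of the basement membrane: Col4a1, Col4a2, Lama5, Lamb1, Lamb2, Lamc1, Nid1 and Hspg2. They were taken by name as 8 of the 15958 genes in the deposited table of log2 TPM, and all 8 were present. TPM is transcript abundance per transcript length, scaled to a fixed total per library. The liver was followed across 3 groups, and the duodenum and ileum served as contrast.

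All mice were wild-type C57BL/6 males that underwent either a small bowel resection (SBR) or a sham operation at 8 weeks of age. From 3 weeks after surgery they received daily WUSTL0717 at 30 mg/kg, a gut-restricted agonist of the liver X receptors, or vehicle for 7 weeks; every sham mouse received vehicle, and there was no sham group on WUSTL0717. There were 18 liver libraries, from 5 sham mice, 8 SBR mice on vehicle and 5 SBR mice on WUSTL0717. Duodenum and post-anastomotic ileum each had 3, 4 and 4 libraries in the same order. The labels and the text of the study differ on the extent of the resection, and the labels do not say which libraries of different tissues came from the same mouse.

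The basement membrane is a thin sheet of matrix under epithelia and around vessels, muscle and nerve. Laminin heterotrimers, each of an alpha, a beta and a gamma chain, polymerize at the cell surface, type IV collagen forms a crosslinked network beside them, and nidogen and perlecan join the networks. In the normal liver, sinusoids lack a continuous basement membrane, whereas bile ducts and larger vessels rest on one. The appearance of collagen IV and laminin along sinusoids is known as capillarization and accompanies fibrosis.

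In GRCm38 (GENCODE M21), Col4a1 lies on the minus strand at chr8:11198423-11312826 and Col4a2 on the plus strand at chr8:11312805-11449287. They run head to head, and their annotated starts overlap by 22 bases at chr8:11312805-11312826, so reads from those bases could belong to either gene. Lama5 lies at chr2:180176373-180225859 (minus), Lamb1 at chr12:31265234-31329644 (plus), Lamb2 at chr9:108479736-108490530 (plus), Lamc1 at chr1:153218922-153332786 (minus), Nid1 at chr13:13437551-13512269 (plus) and Hspg2 at chr4:137468769-137570630 (plus). The values are sums over each gene, so no exon or isoform is resolved. RefSeq promoter windows (GRCm38.p6), from 250 bases before to 50 bases after a gene's start, were at hand for 7 members, all but Lamc1. The stretches upstream of the annotated starts are shown for Lama5 and Nid1, which changed strongly in the liver, and for Hspg2 and Lamb1, which changed less (a choice made with these values known), 5′ to 3′ on the gene's own strand, with GGGCGG (the GC box) on either strand in capitals:
Lama5, chr2:180225860-180226109, minus strand: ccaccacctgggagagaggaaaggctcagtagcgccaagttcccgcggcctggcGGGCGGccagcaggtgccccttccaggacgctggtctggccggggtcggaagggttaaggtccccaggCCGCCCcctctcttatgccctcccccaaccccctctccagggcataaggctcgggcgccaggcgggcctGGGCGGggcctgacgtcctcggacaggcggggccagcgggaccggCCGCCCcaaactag
Nid1, chr13:13437352-13437550, plus strand: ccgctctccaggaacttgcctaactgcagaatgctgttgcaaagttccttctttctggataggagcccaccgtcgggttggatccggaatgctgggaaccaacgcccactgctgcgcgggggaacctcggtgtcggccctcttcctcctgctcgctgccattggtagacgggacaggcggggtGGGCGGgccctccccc
Hspg2, chr4:137468553-137468768, plus strand: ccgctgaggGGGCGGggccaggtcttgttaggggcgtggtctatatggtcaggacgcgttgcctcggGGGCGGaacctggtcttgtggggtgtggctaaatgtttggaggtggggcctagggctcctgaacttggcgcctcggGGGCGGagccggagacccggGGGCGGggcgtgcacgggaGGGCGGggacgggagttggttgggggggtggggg
Lamb1, chr12:31265043-31265233, plus strand: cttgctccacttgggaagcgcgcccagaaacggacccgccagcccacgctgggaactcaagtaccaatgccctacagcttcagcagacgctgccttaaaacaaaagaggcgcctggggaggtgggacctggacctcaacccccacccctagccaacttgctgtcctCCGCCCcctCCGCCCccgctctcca
Over the whole windows and both strands, GGGCGG occurred in 6 of the 7 member promoters (4 matches for Lama5, 1 for Nid1, 5 for Hspg2, 2 for Lamb1, 1 for Col4a1 and 3 for Col4a2) and in 35.7% of all 32851 promoter windows. CCAAT occurred in 4 of 7 (Col4a1, Col4a2, Lamb1 and Nid1; 37.4% of all windows). TATAAA (13.6% of all windows) and TGANTCA, the AP-1 letters (7.81%), occurred in none of the 7. The promoters printed for the strongly and the less changed genes both carried the GC box, and these matches are a description of the letters alone.

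Every one of these genes was higher in the liver after resection. Mean log2 fold changes against sham ranged from 1.04 for Lamc1 to 1.86 for Col4a1, which is 2.06-fold to 3.64-fold. All 8 members passed the threshold (limma, Benjamini-Hochberg adjusted p below 0.05), and in all 8 every SBR vehicle library lay above every sham library. Of all 15896 genes tested, 37.5% were called higher and 15.6% had SBR libraries wholly above sham libraries. The median change of the members was 1.46 log2 units, and that of all genes tested was 0.25 (1.16 and -0.06 with median centring). In WUSTL0717-treated mice the members lay between the other groups: all 8 were still called higher than sham, and 4 of them (Col4a1, Col4a2, Lama5 and Nid1) were called lower than in SBR vehicle mice. No member had treated libraries wholly below those of SBR vehicle mice, as the plot of liver levels by library shows.

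**Figure D1:**
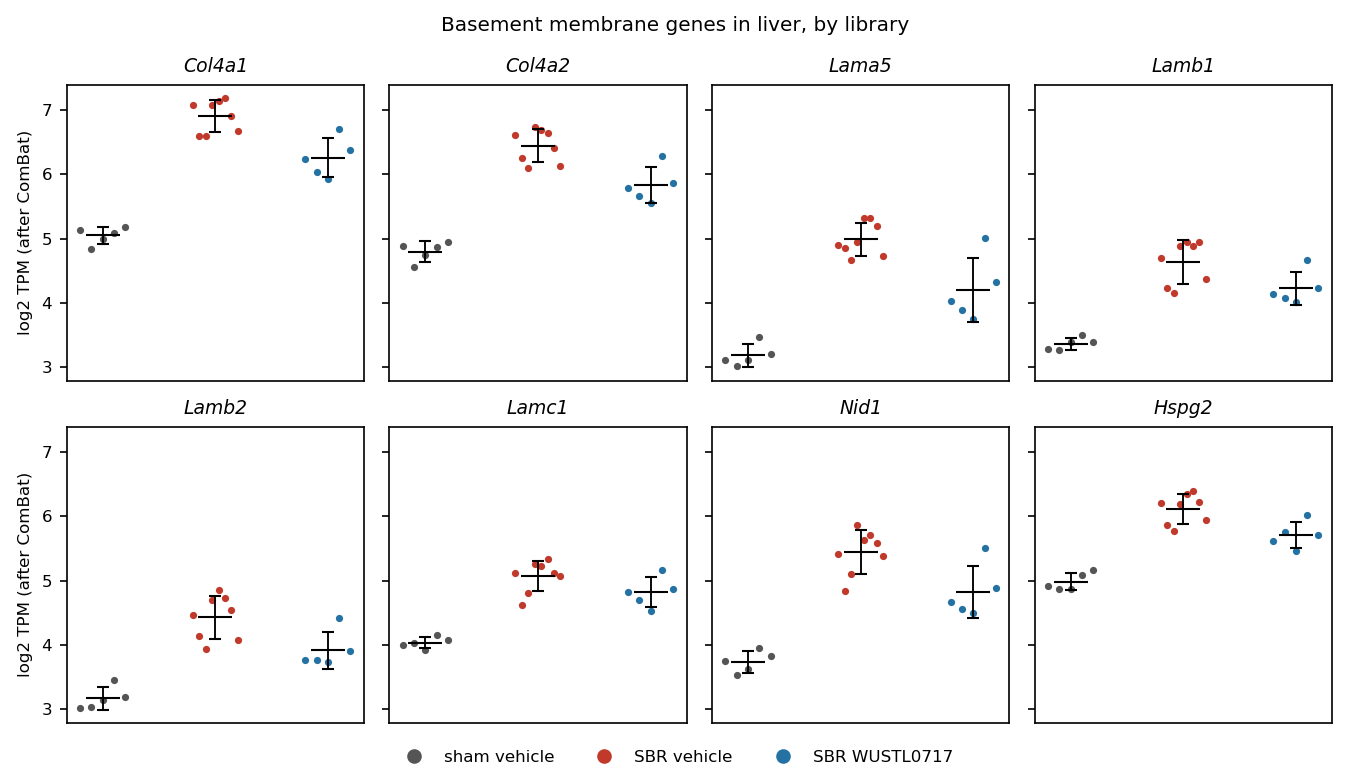
Log2 TPM of the 8 basement membrane genes in the liver. Each point is 1 library (5 sham vehicle, 8 SBR vehicle, 5 SBR WUSTL0717), with the mean and SD in black. Every SBR library lies above every sham library in each panel, and WUSTL0717 replicate 4 is the highest treated library in each.

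Col4a1 and Col4a2 encode the alpha chains that form the most widespread type IV collagen trimer. Col4a1 was 4.84, 5.00, 5.08, 5.13 and 5.19 in the sham livers (log2 TPM). In SBR vehicle livers it ran from 6.60 through a median of 7.00 to 7.19. In WUSTL0717 livers it was 5.94, 6.03, 6.24, 6.38 and 6.70. The sham group thus lay apart from both resected groups, and the treated group overlapped the SBR vehicle group only through its highest library. The change with SBR was 1.86 ± 0.13 (SE; adjusted p = 1.30e-08, limma), the 24th smallest p of all genes, and that with WUSTL0717 against SBR vehicle was -0.65 ± 0.13 (adjusted p = 0.0133, limma).

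Col4a2 was 4.55, 4.74, 4.87, 4.88 and 4.95 in sham livers. It ran from 6.09 through a median of 6.51 to 6.73 with SBR, and was 5.55, 5.67, 5.80, 5.86 and 6.28 with WUSTL0717. The order of the groups was that of its partner. It rose by 1.65 ± 0.13 with SBR (adjusted p = 3.95e-08, limma) and fell by 0.62 (SE 0.13) with WUSTL0717 (adjusted p = 0.0164, limma). The gap between the partners was narrow in every library: Col4a1 exceeded Col4a2 by 0.25 ± 0.03 in sham livers (SD, n = 5), 0.47 ± 0.08 with SBR (SD, n = 8) and 0.43 ± 0.06 with WUSTL0717 (SD, n = 5). The gap was 0.21 wider with SBR than in sham (exact two-sided permutation test, p = 0.00155, adjusted p = 0.00622 over the 12 tests of paired genes run), whereas the difference between the resected groups was -0.04 (exact p = 0.361). The batch correction rescales each gene separately, so sizes of change are compared between genes only on the corrected scale.

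Lama5 encodes the alpha 5 chain of laminin-511 and laminin-521, the laminins of many mature epithelia and vessels. It was 3.01, 3.11, 3.11, 3.21 and 3.47 in sham livers. It ran from 4.67 through a median of 4.93 to 5.33 in SBR vehicle livers, and was 3.74, 3.88, 4.03, 4.32 and 5.02 in WUSTL0717 livers. Of the treated libraries, 4 lay below every SBR vehicle library, and the fifth lay above 5 of the 8. Lama5 had the largest decline of the members under WUSTL0717, 0.79 log2 units below SBR vehicle (SE 0.17, 95% interval of the change -1.16 to -0.43, adjusted p = 0.0172, limma), after a rise of 1.81 ± 0.17 with SBR (adjusted p = 2.40e-07, limma).

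Lamb1 and Lamb2 encode the beta chains with which Lama5 and Lamc1 assemble. Lamb1 was 3.26, 3.27, 3.38, 3.39 and 3.49 in sham livers, and ran from 4.15 through a median of 4.79 to 4.94 with SBR. With WUSTL0717 it was 4.02, 4.08, 4.14, 4.23 and 4.67, which overlapped the SBR vehicle group. The rise with SBR was 1.28 ± 0.15 (adjusted p = 1.80e-06, limma), and the difference of -0.41 ± 0.15 between the resected groups did not pass (adjusted p = 0.139, limma; 95% interval -0.72 to -0.10).

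Lamb2 was 3.02, 3.04, 3.14, 3.18 and 3.45 in sham livers. It ran from 3.94 through a median of 4.51 to 4.85 with SBR and was 3.72, 3.77, 3.77, 3.90 and 4.42 with WUSTL0717. Here 4 of the 5 treated libraries lay below every SBR vehicle library. The rise with SBR was 1.26 ± 0.16 (adjusted p = 3.99e-06, limma), and the value for WUSTL0717 against SBR vehicle was -0.51 ± 0.16 (adjusted p = 0.0772, limma; 95% interval -0.84 to -0.18). Lamb1 exceeded Lamb2 by 0.19 ± 0.09 in sham (SD, n = 5) and 0.21 ± 0.10 in SBR vehicle livers (SD, n = 8), a difference of 0.02 (exact two-sided permutation test, p = 0.792). With WUSTL0717 the gap was 0.31 ± 0.05 (SD, n = 5), which was 0.12 wider than in sham (exact p = 0.0238, adjusted p = 0.0357 over the 12) and 0.10 wider than with SBR vehicle (exact p = 0.0668, adjusted p = 0.0891).

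Lamc1 encodes the gamma 1 chain, shared by most laminins. It was 3.92, 4.00, 4.03, 4.07 and 4.14 in sham livers, ran from 4.63 through a median of 5.12 to 5.34 with SBR, and was 4.53, 4.70, 4.82, 4.86 and 5.17 with WUSTL0717. It was the member that moved least: it rose by 1.04 ± 0.12 with SBR (adjusted p = 1.53e-06, limma), and its value for WUSTL0717 against SBR vehicle was -0.25 ± 0.12 (adjusted p = 0.279, limma; 95% interval -0.50 to -0.00479). Only 1 treated library lay below all SBR vehicle libraries. Lama5 stood 0.85 ± 0.12 below Lamc1 in sham livers (SD, n = 5), 0.08 ± 0.20 below it with SBR (SD, n = 8) and 0.62 ± 0.28 below it with WUSTL0717 (SD, n = 5). On the corrected scale Lama5 gained 0.77 log2 units on Lamc1 with SBR (exact two-sided permutation test, p = 0.000777, adjusted p = 0.00466 over the 12). That p is the lowest value open to 8 against 5 libraries. Lama5 was 0.54 lower relative to Lamc1 with WUSTL0717 than with SBR vehicle (a change of -0.54, exact p = 0.00389, adjusted p = 0.00932). Each gene was rescaled separately, so the size of such a gain depends on that scale.

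Nid1 encodes nidogen-1, which binds the laminin gamma 1 chain and type IV collagen. It was 3.52, 3.62, 3.74, 3.83 and 3.94 in sham livers. It ran from 4.84 through a median of 5.50 to 5.87 with SBR, and was 4.50, 4.55, 4.67, 4.88 and 5.51 with WUSTL0717. Of the treated libraries, 3 lay below all SBR vehicle libraries. It rose by 1.71 ± 0.17 with SBR (adjusted p = 3.81e-07, limma) and fell by 0.62 (SE 0.17) with WUSTL0717 (adjusted p = 0.0476, limma), just past the threshold. When the libraries of both resected groups were left out in turn, Nid1 remained past it 3 of 13 times (adjusted p up to 0.171, limma), against 11 of 13 for Col4a1 and 10 of 13 for Col4a2 and Lama5. On the corrected scale, Nid1 gained 0.67 relative to its binding partner Lamc1 with SBR (exact p = 0.000777, adjusted p = 0.00466). The change with WUSTL0717 against SBR vehicle was -0.37 (exact p = 0.00389, adjusted p = 0.00932).

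Hspg2 encodes perlecan, the large heparan sulfate proteoglycan of basement membranes. It was 4.86, 4.88, 4.92, 5.08 and 5.16 in sham livers, ran from 5.77 through a median of 6.20 to 6.40 with SBR, and was 5.46, 5.61, 5.71, 5.75 and 6.02 with WUSTL0717. The sham livers again lay apart from both resected groups. The rise with SBR was 1.14 ± 0.12 (adjusted p = 3.86e-07, limma), and the value of -0.41 ± 0.12 for WUSTL0717 against SBR vehicle narrowly missed the threshold (adjusted p = 0.0514, limma; 95% interval -0.65 to -0.17).

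**Figure D2:**
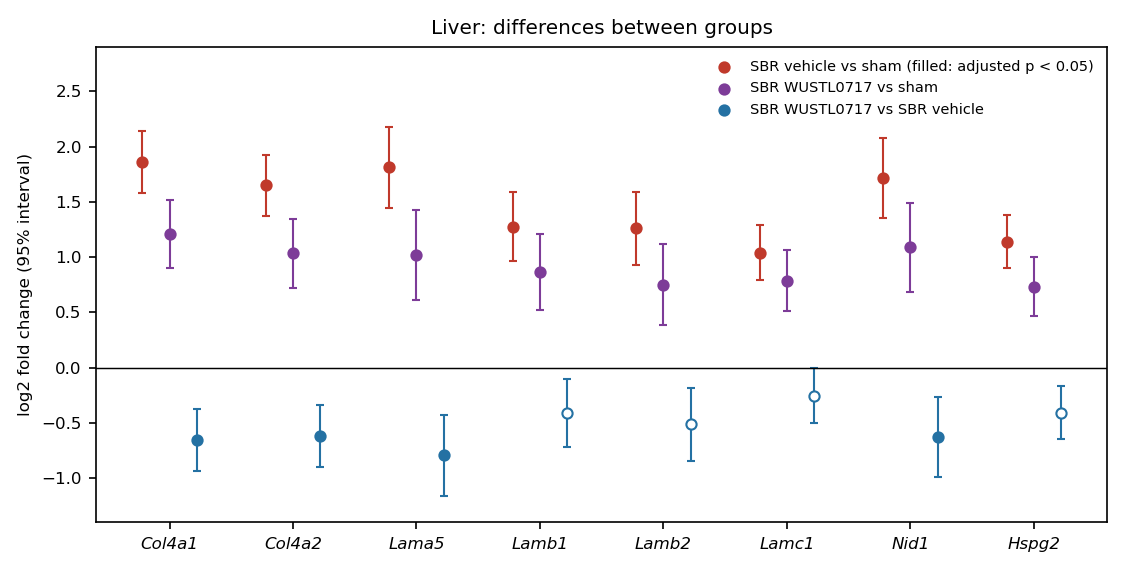
Log2 fold changes (vertical axis, with 95% intervals from limma) of the 8 genes in the 3 liver comparisons. Filled points passed an adjusted p of 0.05 and open points did not: all 16 comparisons with sham are filled, and 4 of the 8 of WUSTL0717 against SBR vehicle are.

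All 8 members had lower means with WUSTL0717 than with SBR vehicle (changes of -0.79 to -0.25, median -0.56, all-gene median 0.02). The 4 calls compare with 2.67% of 15896 genes called lower. No member had groups that did not overlap, against 0.308% of all genes with treated libraries wholly below SBR vehicle. Treated replicate 4 had the highest median log2 TPM over all genes of the treated livers (3.73). It was the highest treated library for every member, above 3 to 5 of the 8 SBR vehicle libraries. Without it, the other 4 treated libraries lay below all 8 SBR vehicle libraries for Col4a1, Col4a2, Lama5, Lamb2 and Hspg2. Without that library 7 members were called lower, without treated replicate 1 only Col4a1 was, and without treated replicate 2 or 3 none was, all by limma. The count also moved with the method, from 8 when each library was centred on its median to 0 under an unmoderated two-sample test, where no gene of the table was called; all 8 had an unadjusted limma p below 0.05, as did 17.2% of all genes.

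Against sham, the WUSTL0717 livers were higher by 0.73 (Hspg2) to 1.21 (Col4a1) log2 units. All 8 were called (adjusted p between 3.47e-05 and 0.00511, limma), and no group pair overlapped (p = 0.00794 for each in an exact two-sided permutation, the lowest value open to 5 against 5 libraries). Of all genes, 27.8% were called higher and 27.4% had treated livers wholly above sham. The median change was 0.94 for the members and 0.27 for all genes. With each library centred on its median these became 0.64 and -0.03, and with quantile normalization 0.63 and -0.02. The smallest values under the alternatives were 0.43 for Hspg2, 0.44 for Lamb2, 0.48 for Lamc1 and 0.55 for Lamb1, against 0.73, 0.75, 0.79 and 0.87 as deposited, and all 8 members stayed called.

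The members also varied together. Across the 18 liver libraries, the Pearson r of the 28 pairs ran from 0.95 (Lama5 with Lamc1) to 1.00 (Col4a1 with Col4a2), a description in which the group differences are included. With the group means removed, r ran from 0.77 (Lama5 with Lamc1) through a median of 0.87 to 0.97 (Col4a1 with Col4a2). Lamb1 and Lamb2, and Nid1 and Lamc1, followed as the next closest pairs at 0.95 and 0.93. The libraries share their scaling, and the mean of the members also followed the library median with group means removed (r = 0.82). Library medians ran from 3.05 to 3.36 in sham, 3.13 to 3.77 in SBR vehicle and 3.43 to 3.73 in WUSTL0717 livers, and all 8 members stayed called higher with SBR both with median centring and with quantile normalization, which equalize these medians.

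**Figure D3:**
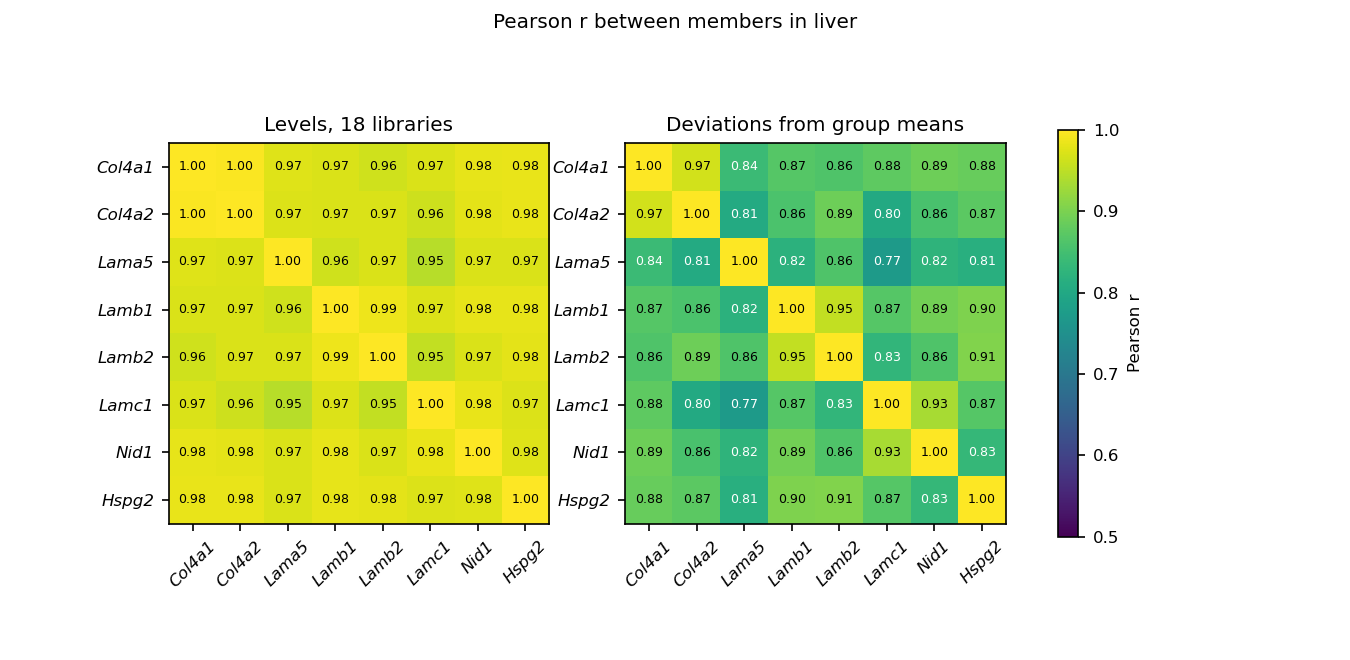
Pearson r between pairs of the 8 genes in the liver, of the levels in 18 libraries (left) and of deviations from the 3 group means (right). Colour and printed value give r; Col4a1 with Col4a2 is the closest pair on both sides and Lama5 with Lamc1 the least close.

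The 5 other genes whose liver pattern was most like the mean of the members, each standardized over the 18 libraries, were Mfge8 (r = 0.997), Efemp2 (0.996), Timp2 (0.994), Selenon (0.994) and Ptprs (0.994). This pattern was common, since 10.7% of 15898 genes had r above 0.9. Mfge8, a secreted glycoprotein, was 4.04 ± 0.18 in sham (SD, n = 5), 5.85 ± 0.33 with SBR (SD, n = 8) and 5.14 ± 0.35 with WUSTL0717 (SD, n = 5). Efemp2 encodes fibulin-4, a protein of elastic fibres and basement membranes, and Timp2 an inhibitor of matrix metalloproteinases. Since these 5 were chosen for their likeness over the same libraries, group differences included, their changes are a description: with SBR against sham they ran from 1.33 (Selenon) to 1.81 (Mfge8), and with WUSTL0717 against SBR vehicle from -0.71 (Mfge8) to -0.43 (Selenon).

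Of 26 other basement membrane components listed, 22 were in the table. With SBR in the liver, 16 were called higher and 2 lower (37.5% and 4.48% of all genes). With WUSTL0717 against SBR vehicle 11 were called lower and none higher (2.67% and 1.45% of all genes). Among other basement membrane collagens, Col4a5 rose by 1.79 ± 0.20 (adjusted p = 9.97e-07, limma) and Col15a1, a collagen of vessel and muscle basement membranes, by 1.18 ± 0.19 (adjusted p = 4.91e-05, limma). Col18a1, the source of endostatin, fell by 0.27 (SE 0.10, adjusted p = 0.0275, limma). With WUSTL0717, Col4a5 (-0.90, adjusted p = 0.0172, limma) and Col15a1 (-0.72, adjusted p = 0.0341, limma) were called lower than in SBR vehicle livers.

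Of the 7 other laminin chains, 5 were called higher with SBR and 1 lower (median 0.79), beside 37.5% and 4.48% of all genes. Among them, Lamc3 (2.45 ± 0.22, adjusted p = 1.40e-07, limma) and Lama2, the alpha chain of muscle laminin (1.59 ± 0.18, adjusted p = 1.06e-06), rose. Both were also called lower with WUSTL0717 than with SBR vehicle, with changes of -0.99 (adjusted p = 0.0195, limma) and -0.65 (adjusted p = 0.0435). Lama3, the alpha chain of laminin-332, was the laminin that fell, from 3.00 ± 0.23 in sham (SD, n = 5) to 2.14 ± 0.24 with SBR (SD, n = 8), and it was 2.33 ± 0.12 with WUSTL0717 (SD, n = 5), still 0.67 below sham (log2 change -0.67, adjusted p = 0.00212, limma).

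Linkers and proteoglycans gave 9 of 12 genes called higher with SBR (median 1.10) and 6 of 12 called lower with WUSTL0717. Of all genes, 37.5% and 2.67% were so called. Sparc, a collagen-binding protein, rose by 1.73 ± 0.17 (adjusted p = 2.19e-07, limma) and Smoc2 by 1.96 ± 0.15 (adjusted p = 2.87e-08). With WUSTL0717, Sparc differed from SBR vehicle by -0.74 (adjusted p = 0.0182, limma), Fbln2, a fibulin, by -0.59 (adjusted p = 0.0247) and Smoc2 by -0.59 (adjusted p = 0.0365).

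Among 14 receptors, 9 were called higher and 1 lower with SBR (37.5% and 4.48% of all genes). With WUSTL0717 4 were called lower (2.67% of all genes). The collagen receptor Ddr1 rose from 3.11 ± 0.15 (SD, n = 5) to 5.72 ± 0.23 (SD, n = 8; change 2.61, adjusted p = 8.46e-09, limma) and was 4.80 ± 0.56 with WUSTL0717 (SD, n = 5; change -0.92, adjusted p = 0.0105). The laminin-binding integrin chains Itgb4 (1.40) and Itga3 (1.24) also rose with SBR (adjusted p = 3.66e-07 and 3.18e-07, limma), and Itgb4 (-0.64) and Itga6 (-0.63) were called lower with WUSTL0717.

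Enzymes and chaperones of collagen folding moved less: 5 of the 10 in the table were called higher with SBR (median 0.33, beside 37.5% and a median of 0.25 for all genes), and none was called in either direction with WUSTL0717 (median 0.05). Serpinh1, the collagen chaperone HSP47, rose by 1.75 ± 0.17 with SBR (adjusted p = 2.86e-07, limma). Of 9 proteases and inhibitors of basement membrane turnover, 8 were called higher with SBR and 4 lower with WUSTL0717 (37.5% and 2.67% of all genes). Mmp2, a gelatinase that cleaves type IV collagen, rose by 2.52 ± 0.20 (adjusted p = 3.99e-08, limma) and its inhibitors Timp2 and Timp1 by 1.73 and 2.26. With WUSTL0717, Mmp2 differed from SBR vehicle by -1.03 (adjusted p = 0.0118, limma), Mmp7 by -2.50 (adjusted p = 0.0140) and Timp1 by -0.90 (adjusted p = 0.0255).

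**Figure D4:**
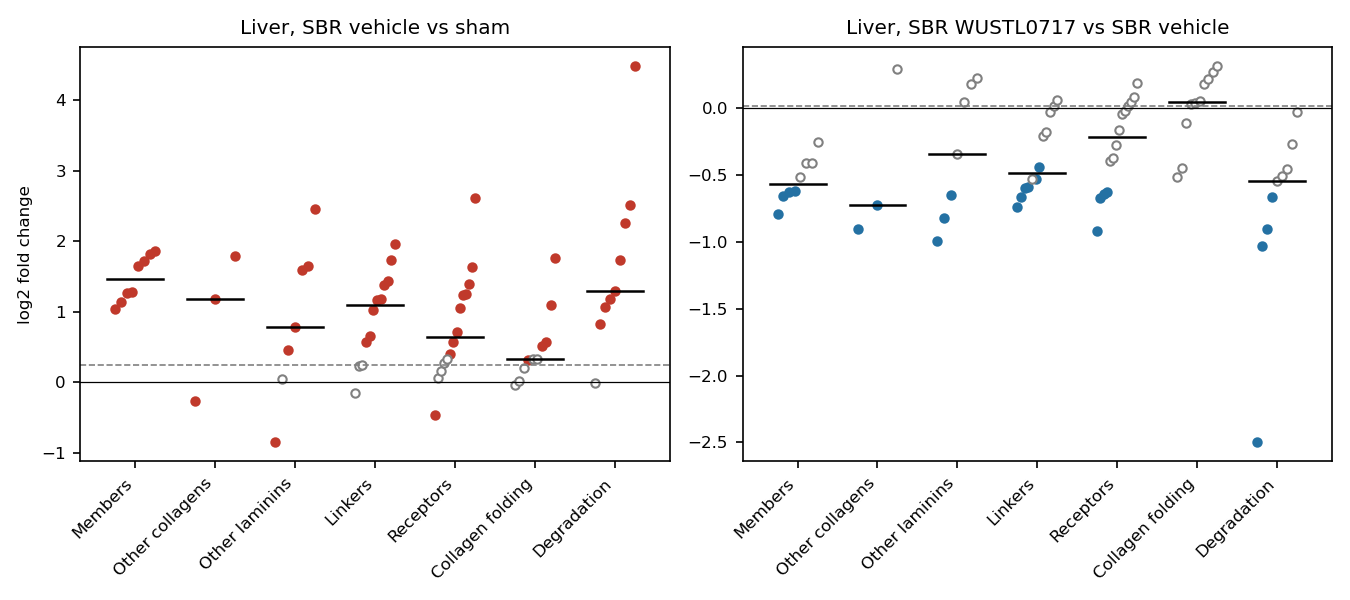
Log2 fold changes in the liver of the members and of 6 related gene lists, 1 point per gene, coloured where adjusted p is below 0.05 and open where not. The black bar is the list median and the dashed line the median of all genes tested; the members' medians are 1.46 (left) and -0.56 (right).

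Bulk libraries cannot tell more cells of a type from more transcript per cell. Markers of other cell types moved with the members in the liver, where 37.5% of all genes were called higher with SBR and 2.67% lower with WUSTL0717. The 6 cholangiocyte markers were all called higher with SBR (median 2.12), and 5 were called lower with WUSTL0717; their summed TPM ran from 78.6 to 190 in sham, 427 to 858 in SBR vehicle and 241 to 578 in WUSTL0717 livers. Krt19 was 5.51 ± 0.67, 7.65 ± 0.38 and 6.97 ± 0.65 in those groups (SD, n = 5, 8 and 5), and Epcam 5.03 ± 0.37, 7.71 ± 0.39 and 6.61 ± 0.62. Of the 11 stellate cell and fibroblast markers, 10 were called higher with SBR and 4 lower with WUSTL0717, with summed TPM of 183 to 256, 418 to 733 and 316 to 516. Col3a1 was 4.55 ± 0.30, 7.30 ± 0.37 and 6.16 ± 0.49, and Ecm1 6.62 ± 0.16, 6.30 ± 0.37 and 6.76 ± 0.17. With group means removed, the mean of the members followed the mean of the stellate and fibroblast markers (r = 0.97) and that of the cholangiocyte markers (r = 0.94). The other marker lists followed at 0.59 (smooth muscle) to 0.84 (enterocyte), and the library median at 0.82. All these values include the scaling that the libraries share.

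By counts of calls and median changes, other lists lay closer to all genes, of which 37.5% were called higher with SBR with a median of 0.25. Of 10 endothelial markers 4 were called higher with SBR (median 0.28; Eng rose by 0.61 and Egfl7 by 0.35), of 7 sinusoidal endothelial markers 3 (median 0.21; Stab1 by 0.46 and Gata4 by 0.43), of 7 leukocyte and macrophage markers 3 (median 0.24; Lyz2 by 1.13 and Cd68 by 0.99), of 9 smooth muscle markers 2 (median -0.0028, with Acta2 at 5.37 ± 0.56 in sham and 5.36 ± 0.51 with SBR, and Mylk at 5.88 ± 0.30 and 6.12 ± 0.22), and of 2 nerve markers 1 (Tubb3, by 0.69). With WUSTL0717 against SBR vehicle, none of the endothelial, sinusoidal, smooth muscle, hepatocyte or nerve markers was called, and 1 leukocyte and macrophage marker was called higher (Clec4f, a Kupffer cell lectin, at 3.22 with SBR vehicle and 3.97 with WUSTL0717, chosen after its values were seen). Of 8 hepatocyte markers, 1 was called higher and 3 lower with SBR, with Alb at 9.48 ± 0.14 in sham and 9.24 ± 0.46 with SBR, and Cps1 at 10.21 ± 0.24 and 9.78 ± 0.28. Of 7 enterocyte markers, 1 was called higher with SBR and 1 lower with WUSTL0717, and Fabp2 and Anpep were listed at 9.24 and 8.89 in sham liver on the corrected scale. By summed TPM, leukocyte and macrophage markers ran from 132 to 189 in sham, 217 to 407 in SBR vehicle and 241 to 363 in WUSTL0717 livers. The nerve markers ran from 1.81 to 2.32, 2.40 to 4.17 and 2.08 to 3.08. By this measure the other lists of this paragraph overlapped between sham and SBR vehicle. No listed marker was at 0 in a whole group. The part of any of these cell types in the members' changes was not tested.

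In the intestine no member passed the threshold in any of the 6 comparisons. The duodenum and ileum libraries spread more widely: the SE of a member's log2 fold change was 0.31 to 0.67, against 0.12 to 0.19 in the liver. Duodenal Col4a1 was 4.66, 5.11 and 6.49 in sham, 4.35, 4.83, 5.38 and 5.64 with SBR, and 3.33, 3.85, 5.03 and 6.13 with WUSTL0717. All 3 groups overlapped. Lamb2, the member with the largest duodenal difference, was 2.94, 3.14 and 4.03 in sham, 1.88, 1.89, 2.18 and 3.41 with SBR, and 1.38, 1.54, 2.50 and 2.93 with WUSTL0717. Its treated libraries lay below all sham libraries (change -1.28 ± 0.51, adjusted p = 0.249, limma), as did 12.8% of all genes.

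In the duodenum all 8 means were lower with SBR than in sham (-1.03 to -0.14, median -0.50), where the all-gene median was -0.36; adjusted p was at least 0.326 (limma), and no gene of the table was called, with 16.1% at an unadjusted p below 0.05 but no member. Centring on the library median or quantile normalization turned the sign for Col4a2 and Lama5, and centring also for Col4a1. With WUSTL0717 the means were lower than with SBR vehicle by changes of -0.72 to -0.13, with 0.272% of genes called and 5.28% at an unadjusted p below 0.05, none of them a member. Against sham the changes were -1.28 to -0.70, with 0.737% of genes called and 16.8% at an unadjusted p below 0.05, among them Lamb2. Sham replicate 3 was the highest duodenal sham library for all 8 members, and SBR vehicle replicate 1 was the highest of its group for 6 of them. Both also had the highest library median of their groups (3.09 and 3.08).

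In the ileum the 8 means were higher with SBR than in sham, from 0.03 for Hspg2 to 0.95 for Nid1 (median 0.77, all-gene median 0.07; adjusted p at least 0.593, limma; 0.349% of genes called and 8.45% at an unadjusted p below 0.05, none of them a member), and centring or quantile normalization turned the sign for Hspg2. Ileal Lamb1 was 3.73, 3.79 and 4.48 in sham, and 4.53, 4.53, 4.82 and 4.90 with SBR. All 4 SBR libraries lay above sham (p = 0.0286 in an exact two-sided permutation, which can go no lower here; adjusted p = 0.627 by limma; 6.73% of all genes lay so). Nid1 was 3.84, 4.34 and 5.31 in sham and 5.22, 5.35, 5.56 and 5.66 with SBR, which overlapped through 1 sham library. With WUSTL0717 against SBR vehicle the changes ran from -0.13 to 0.45, with 0.0698% of genes called and 6.82% at an unadjusted p below 0.05, none of them a member. Against sham they ran from 0.16 to 1.39 (Col4a1, adjusted p = 0.305, limma), with 2.16% of genes called and 14.1% at an unadjusted p below 0.05, among them Col4a1 and Lamc1. Sham replicate 3 was the highest ileal sham library for all 8 members (mean of the members 5.55, beside 4.13 and 4.27 in the other sham libraries). The Col4a1 change against sham was 2.08 with WUSTL0717 and 1.63 with SBR without that library, and 0.71 and 0.26 without sham replicate 1, with no call in any of these fits. WUSTL0717 replicate 2 was the highest treated ileal library for 6 members: its Nid1 was 6.70 beside 4.83, 4.83 and 4.91 in the other treated libraries, whereas its Col4a1 of 6.23 was the lowest of the 4. The library median of this replicate was 3.82, the highest of the treated ilea.

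The ileal members varied together less closely than those in the liver, in values that rest in part on a single library. In WUSTL0717 replicate 2, Nid1 was the highest and Col4a1 the lowest of the treated ilea, and r without that library was not computed. With group means removed, r over the 28 pairs ran from 0.09 (Col4a1 with Nid1) through a median of 0.74 to 0.98 (Lamc1 with Nid1), and Col4a1 correlated at 0.97 with Col4a2 but at 0.15 with Lamb1, 0.16 with Lamc1 and 0.25 with Lamb2. The mean of the members was also set against the marker lists, first with group differences included. Across the 11 ileal libraries it followed the stellate and fibroblast (r = 0.96), endothelial (0.88) and smooth muscle markers (0.88). With group means removed these values were 0.93, 0.81 and 0.94. Across the 11 duodenal libraries the mean of the members followed the endothelial (0.93) and stellate and fibroblast markers (0.85). With group means removed these were 0.91 and 0.90. The summed TPM of the smooth muscle markers spanned 29.4 to 147 among duodenal libraries and 141 to 482 among ileal ones. How much muscle wall a sample held was not tested. Few genes of the related lists were called in the intestine. In the ileum Lamb3, the beta chain of laminin-332, rose with SBR by 2.61 (adjusted p = 0.00212, limma) and with WUSTL0717 against sham by 2.68 (adjusted p = 0.000773), and the heparan sulfate proteoglycan Sdc1 rose by 2.11 with SBR (adjusted p = 0.0172). With WUSTL0717 against sham, Sdc1 (2.21), the laminin chain Lama1 (1.38), Plod1, a lysyl hydroxylase (1.47), and Mmp9 (-1.47) were also called in the ileum, and Col4a5 (-1.97, adjusted p = 0.0251, limma) in the duodenum.

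Whether the effects themselves differed between tissues was tested on all 40 libraries with 1 mean per tissue and group. The fit took 1 spread per gene from all tissues together, although the intestinal libraries spread more widely. For Col4a1 the SE of the liver-duodenum SBR difference was 0.63, beside 0.67 for the duodenal effect alone. Only for Nid1 was it larger (0.49 beside 0.48). The p-values against the duodenum are therefore likely too small, and the count of calls may be too high. Liver and intestine were separate batches, so the sizes compared are on scales that the correction set separately. The SBR effect was larger in the liver than in the duodenum for all 8 members, by 1.49 (Lamc1) to 2.29 (Lamb2) log2 units (adjusted p between 0.000292 and 0.0261, limma). Of 14881 genes, 26.6% were called in that direction. Lamb2 rose by 1.26 in the liver and its duodenal change was -1.03. The count of 8 fell to 4 (Lama5, Lamb1, Lamb2 and Nid1) without duodenal sham replicate 3, and to 4 with median centring.

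Between liver and ileum, the SBR effects differed by 0.20 (Lamc1) to 1.46 (Lama5), and none was called (4.9% of genes were; 1 member and 15.5% of genes had an unadjusted p below 0.05). Lama5 was nearest, with 1.81 in the liver and 0.35 in the ileum (difference 1.46 ± 0.51, 95% interval 0.44 to 2.49, adjusted p = 0.0915, limma), and for Lamc1 the interval of the difference ran from -0.67 to 1.06. The WUSTL0717 effects were not shown to differ between liver and either part of the intestine: no member was called against ileum (0.208% of genes were) or duodenum (0.9%), and none had an unadjusted p below 0.05 (6.22% and 8.16% of genes did). The intervals were wide, from -2.31 to 0.11 for Col4a1 against ileum.

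**Figure D5:**
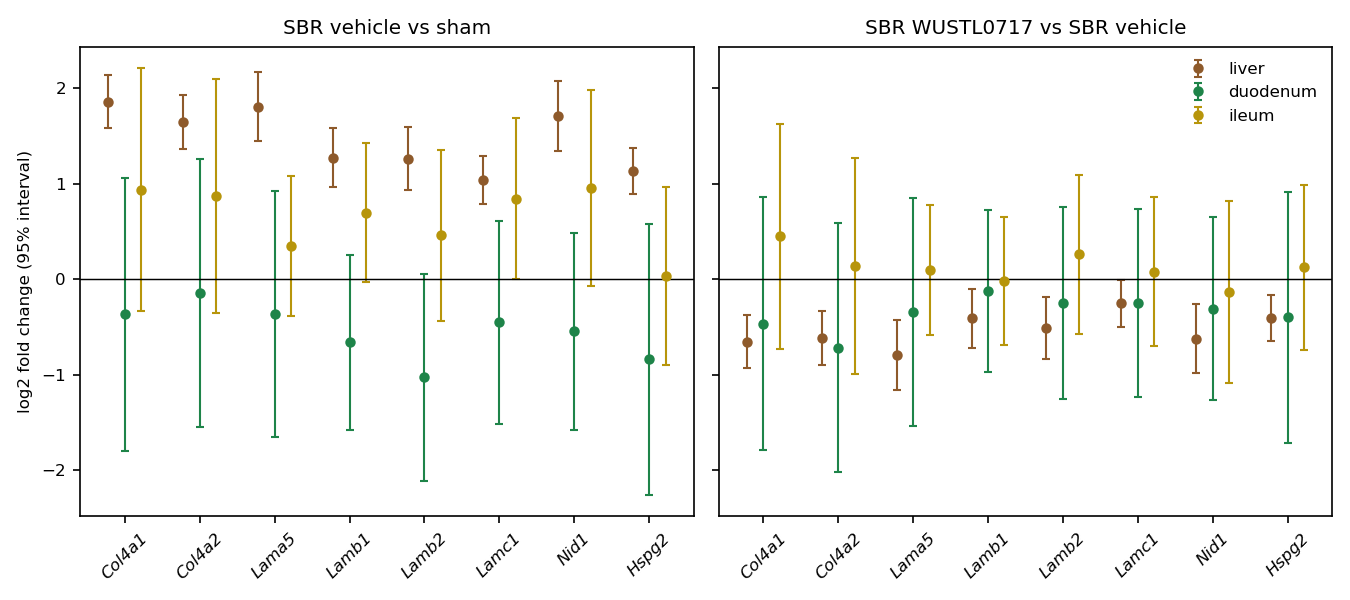
Log2 fold changes (vertical axis, with 95% intervals from limma) of the 8 genes for SBR vehicle against sham (left) and SBR WUSTL0717 against SBR vehicle (right) in 3 tissues. On the left the liver points lie between 1.04 and 1.86 with narrow intervals, and all intestinal intervals include 0.

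The levels cannot be read across tissues. After the authors' correction, 99.4% of the 15958 genes had liver and intestine means within 1 log2 unit, and the 8 members differed by at most 0.66, which also means that hepatocyte and enterocyte markers do not check the tissue labels here. The table gives no read totals, and the depth behind a value is therefore unknown. The p-values measure the spread between mice as the labels number them.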

How the data were processed

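Ribosomal RNA-depleted, random-primed libraries of 18 livers, 11 duodena and 11 ilea were sequenced. The authors aligned reads to GRCm38 with STAR and counted them per gene (featureCounts). The authors calculated TMM factors from the counts in edgeR, but worked on from TPM files; whether those factors entered the TPM is not given in the sources used here. They put the TPM on a log2 scale, corrected for batch with ComBat, and deposited 1 table of log2 TPM for 15958 genes (values from -1.69 to 18.42; 2752 below 0). Batch 1 was the intestine and batch 2 the liver. Within a tissue ComBat is a shift and a rescaling per gene, so the direction of a comparison is kept while its size is rescaled. Whether counting used strand is not given in the sources used here. Depth per library is unknown; values turned back to TPM (assuming 1 was added before the log) summed to 686816 to 819788 per liver library.

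Genes with a mean of at least 1 in a tissue were fitted with limma 3.58.1 (R 4.3.3) on its 3 groups, allowing the variance to follow the mean, adjusted over all genes (Benjamini-Hochberg) and called at an adjusted p below 0.05. The study used unpaired two-sample tests, kept as an alternative. Single values were compared by exact two-sided permutation (Python 3.11.15, numpy 2.4.6, scipy 1.17.1; pandas 2.3.3, matplotlib 3.10.9). The limma step was tested on simulated data. The members and lists were chosen with earlier results of these data known. Named genes were the members, at most 3 called genes per related list with the smallest p in each liver comparison and 1 in each intestinal one, the 5 most alike in the liver, and the 2 highest of each marker list; other ileal and duodenal genes are named because the counts are small, after their values were seen. Listed genes not in the table, such as Col4a3 and Col4a4, are not analysed here. A gene that the rule would name is not reported here. The alternatives tried were dropping the filter or setting it to 3, pseudocounts of 5 or 0.1, median centring, quantile normalization, an unmoderated test, no variance trend, library weights, the compared groups alone, a replicate block and leaving out each library.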

Additional observations from a re-analysis of the deposited data

Results flagged for a closer look

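A single library stood far from the rest of its group in 3 of the 56 groups of 4 to 8 libraries examined (7 per gene); chance sets apart about 1 in 20 such groups. Lamb2 was 4.42 log2 TPM in liver WUSTL0717 replicate 4, beside 3.72 to 3.90 in the other 4 treated livers. In the ileum, WUSTL0717 replicate 2 had Lamb1 at 5.54 (the others 4.30 to 4.51) and Nid1 at 6.70 (the others 4.83 to 4.91). The library medians over all genes were also the highest of their groups in both libraries. The median was 3.73 in liver WUSTL0717 replicate 4 (the others 3.43 to 3.56). It was 3.82 in ileal WUSTL0717 replicate 2 (the others 3.25 to 3.35).

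The effect of SBR against sham differed between liver and duodenum for all 8 genes by the test of the difference itself in limma. That test took 1 spread per gene from all tissues together. Of 14881 genes, 26.6% were called in the same direction. The all-gene median change was 0.25 in the liver and -0.36 in the duodenum, and with median centring 4 members were called. The difference, liver minus duodenum, was 2.23 for Col4a1, 1.79 for Col4a2, 2.18 for Lama5, 1.94 for Lamb1, 2.29 for Lamb2, 1.49 for Lamc1, 2.26 for Nid1 and 1.98 for Hspg2 on the log2 scale. Tissue and batch are the same split in these libraries and cannot be told apart.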

How the results depend on the processing

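All 8 genes stayed called higher in the liver with SBR and with WUSTL0717 against sham under all 11 alternatives and without any single library. The count of 4 called lower with WUSTL0717 against SBR vehicle became 8 with median centring, quantile normalization or library weights, 1 with the compared groups alone and 0 in an unmoderated two-sample test (0 of all genes called); the cause was not tested. Leaving out 1 library gave 0 (treated replicate 2 or 3) to 7 (treated replicate 4). Over all genes this comparison had 655 calls, from 0 unmoderated to 3133 centred. The liver-duodenum difference with SBR, called for 8, was called for 4 with median centring and for 4 to 8 without 1 library; the liver-ileum difference, called for 0, was called for 1 with library weights. No member was called in the intestine under any alternative or without any single library.

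The following values, none of them called, changed sign; the liver-duodenum differences with WUSTL0717 were recomputed only as a count of calls. Duodenum, SBR against sham: Col4a1 was 0.0584 with weights and 0.0357 centred, Col4a2 0.38 with weights, 0.26 centred and 0.0590 quantile-normalized, and Lama5 0.0387 centred and 0.0350 quantile-normalized. Ileum, SBR against sham: Hspg2 was -0.0447 centred and -0.11 quantile-normalized. Ileum, WUSTL0717 against SBR vehicle: with weights Hspg2 was -0.25, Lama5 -0.0355, Lamb2 -0.20 and Lamc1 -0.21, and Lamc1 was -0.0175 quantile-normalized. Ileum, WUSTL0717 against sham: Hspg2 was -0.11 quantile-normalized. The liver-ileum difference of Lamc1 with SBR was -0.0403 centred.

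Leaving out 1 library also turned signs. Duodenum, SBR against sham: Col4a1 ran from -0.75 to 0.16, Col4a2 from -0.61 to 0.49 and Lama5 from -0.79 to 0.25. Duodenum, WUSTL0717 against SBR vehicle: Lamb1 ran from -0.35 to 0.11, Lamb2 from -0.53 to 0.10 and Lamc1 from -0.45 to 0.0511. Ileum, SBR against sham: Hspg2 ran from -0.24 to 0.50. Ileum, WUSTL0717 against SBR vehicle: Col4a2 ran from -0.13 to 0.41, Hspg2 from -0.11 to 0.34, Lama5 from -0.0613 to 0.29, Lamb1 from -0.30 to 0.11, Lamb2 from -0.0539 to 0.47, Lamc1 from -0.24 to 0.25 and Nid1 from -0.59 to 0.0329. Ileum, WUSTL0717 against sham: Hspg2 ran from -0.11 to 0.63. The liver-ileum difference of Lamc1 with SBR ran from -0.17 to 0.45.

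Libraries of different groups share only a replicate number: same-numbered livers correlated at -0.20 to 0.17 in their deviations. With the replicate number as a block, the liver counts were 8, 4 and 8, and 7 for the liver-duodenum difference. Depth is unknown, so its limits cannot be given.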
